A study of Mus musculus with 3 samples.

Results

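The collagen genes on the arrays of gastrocnemius muscle, a fast muscle of the calf, were those whose probe sets carried a single mouse gene symbol made of Col, a type number, the letter a and a chain number. Such a probe set holds short probes that bind the transcript of a gene. This rule found 82 probe sets for 42 genes, of 18193 genes in all with a probe set of their own. They were 11 fibrillar collagens, 8 collagens of basement membranes and 23 of other types. The 3 groups were male C57BL/6J mice given a high-fat diet to which sodium ferrous citrate, an iron salt, was added at 0.023% by weight (HF + SFC), the high-fat diet alone (HF, D12492, 60% kcal fat) or the control diet (Control, D12450B, 10% kcal fat). The diets began at 6 weeks of age and lasted 15 weeks, whereas the sample labels state an age of 21 months. Each group was a single array of mixed material of all its mice, so that no spread between mice can be given and no statistical test was run. The differences below therefore have no replicate check, and they describe these 3 arrays.

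Collagens are proteins of the extracellular matrix whose chains wind around each other into a stiff helix. Fibrillar collagens pack into the fibrils that carry tension in tendon and in the sheaths around muscle fibres. Type IV collagen forms the sheet-like network of the basement membrane that surrounds each muscle fibre and capillary, while the remaining types join, decorate or anchor these structures. In skeletal muscle most collagen transcripts come from fibroblasts and related cells between the fibres. The enzymes that hydroxylate proline and lysine in collagen chains use iron as a cofactor.

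The arrays gave a linear signal in arbitrary units, and a gene's values are those of its brightest probe set, the one whose log2 signal averaged highest on the 3 arrays. Signals can be set against each other between arrays for a probe set, but not between genes, since probes differ in how strongly they bind. The mean after trimming was the same on all arrays (500.0), and the median signal was 68.0 in HF + SFC, 67.4 in HF and 63.6 in Control. The ratio of 3' to 5' control probe sets, a measure of RNA integrity, lay between 0.820 and 0.842 for Gapdh. For beta-actin it was 1.15 in HF + SFC, 1.52 in HF and 1.09 in Control, and its part in the differences was not tested. The label of the tissue as muscle was borne out by its markers. All 10 muscle fibre genes lay above the 75th percentile of signal, with 3778 as the lowest signal on any array. No other muscle was compared, so these markers do not show which muscle it was.

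Genes were placed in 3 tiers by their mean signal: 13 collagens lay above the 75th percentile of all probe sets (a signal of 384), 18 between the median (60.9) and the 75th percentile, and 11 below the median. The tier mattered for how far a ratio can be read. Where a gene had another probe set above the 75th percentile, the log2 ratios of HF over Control from the brightest and the next brightest probe set differed with an SD of 0.26 (2468 genes). Where the next brightest lay in the middle tier this SD was 0.51 (2730 genes), and below the median it was 1.90 (3812 genes). A ratio from a dim probe set thus says little about the transcript.

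Most collagens had a higher signal in HF than in Control. Of the 42 genes, 31 were higher and 11 lower, while of all 18193 genes 9222 were higher and 8970 lower. Their median log2 ratio was 0.30, against 0.01 for all genes. At least 1.5-fold higher signals were found for 14 of the 42 collagens, against 17% of all genes, and at least 1.5-fold lower signals for 2, against 12.2% of all genes. Dim genes made up much of both backgrounds. Among the 13 collagens above the 75th percentile, 12 were higher in HF and 1 was lower, with a median of 0.30, against -0.03 for all 6716 genes of that tier. After centring of each array on its median signal, Col4a2 (-0.028) and Col6a3 (-0.0068) also lay just below 0. As deposited, 2946 of all 6716 genes of the tier were higher and 3769 lower. There, 4 collagens were at least 1.5-fold higher, where 1.53% of all genes of the tier were, and none was at least 1.5-fold lower, where 1.07% were. The 4 were Col1a1, Col1a2, Col5a2 and Col12a1. Col12a1 was the dimmest of the 13, with a geometric mean of 394 over the arrays, and the next collagen outside the tier was Col15a1 with 338. Without Col12a1, which was left out after its values were seen, 3 of 12 were at least 1.5-fold higher in HF and the median was again 0.30. In mixed muscle tissue, more cells of a type and more RNA per cell cannot be told apart.

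**Figure D1:**
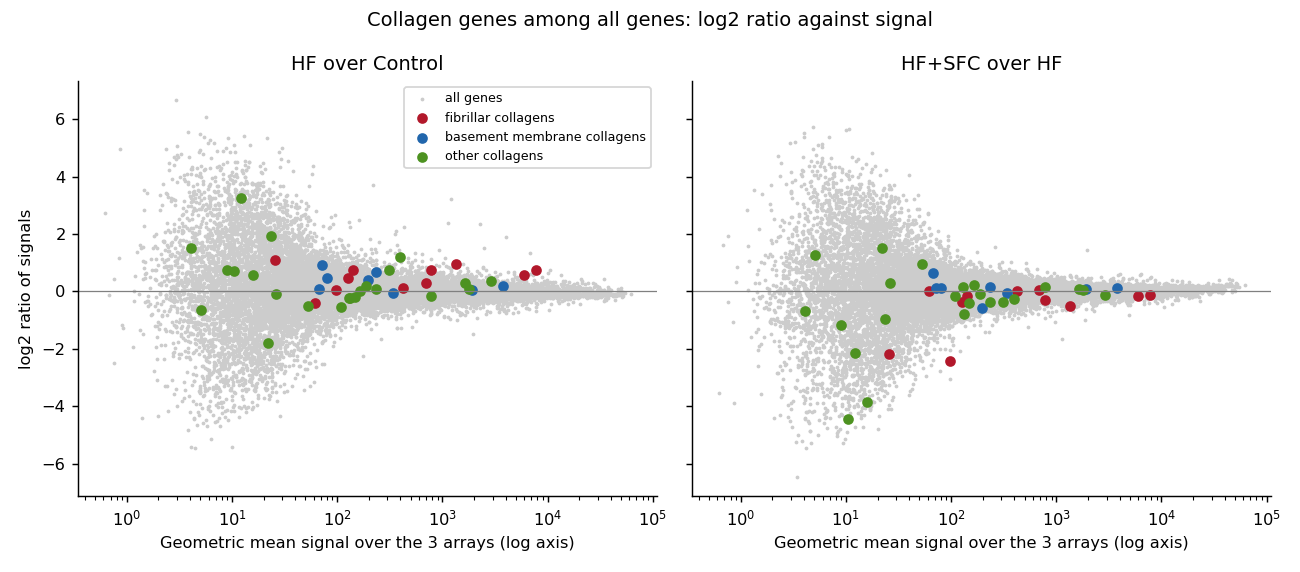
Log2 ratio of signals (vertical axis) against the geometric mean signal in arbitrary units (horizontal log axis) for HF over Control (left) and HF + SFC over HF (right), with the collagen genes coloured by class and all other genes in grey. The spread of ratios is wide among genes of low signal and narrow among bright ones, and 12 of the 13 collagens above a signal of 384 lie above 0 in HF over Control as deposited.

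Between HF + SFC and HF the collagens had no common direction. Of the 42 genes, 18 had a higher and 24 a lower signal in HF + SFC, while of all genes 9346 had a higher and 8847 a lower one. Their median log2 ratio was -0.12, against 0.01 for all genes. At least 1.5-fold higher signals were found for 4 collagens, against 13.7% of all genes, and at least 1.5-fold lower signals for 10, against 13.5%. Of those 10, 7 lay below the median signal and none above the 75th percentile. In the bright tier 7 collagens were higher and 6 lower, with a median of 0.01, while of all genes of the tier 3610 were higher and 3106 lower. None of these 13 reached 1.5-fold in either direction, where 0.298% of all genes of the tier were that much higher and 0.655% that much lower. This comparison shares the HF array with that of HF over Control, so a signal that is high or low on the HF array moves both ratios, in opposite directions.

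Most collagens had a higher signal in HF + SFC than in Control. Of the 42 genes, 28 were higher and 14 lower, while of all genes 9529 were higher and 8664 lower. Their median log2 ratio was 0.22, against 0.02 for all genes. At least 1.5-fold higher signals were found for 10, against 16.5% of all genes, and at least 1.5-fold lower signals for 7, against 12.4%. In the bright tier all 13 collagens were higher in HF + SFC than in Control, with a median of 0.35, but with median centring Col22a1 was lower (-0.073). The median of all genes of the tier was -0.0049, with 3286 higher and 3430 lower. Of the 13, 2 (Col1a2 and Col12a1) were at least 1.5-fold higher, where 0.953% of the tier were, although Col1a2 lay below 1.5-fold with median centring (0.54 on the log2 scale), and none at least 1.5-fold lower, where 1.04% were. Without Col12a1 the first count was 1 of 12.

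Markers of the cells between the fibres also differed between the arrays. Of all 18193 genes, 9222 were higher and 8970 lower in HF than in Control. Of 8 fibroblast markers 7 were higher and 1 lower in HF over Control (median 0.12 on the log2 scale), and their summed signal was 56613 in HF + SFC, 56083 in HF and 49968 in Control. Of 8 tendon markers 7 were higher and 1 lower (median 0.37), with sums of 18887 in HF + SFC, 16503 in HF and 11715 in Control. By their mean over the arrays, no fibroblast, tendon, adipocyte or macrophage marker measured lay below the median signal, though Lep (387 in HF + SFC and 592 in HF) was below it in Control (45.8). All 5 adipocyte markers were higher in HF than in Control (median 2.12), with sums of 29459 in HF + SFC, 32800.1 in HF and 22938 in Control. All 8 macrophage markers were too (median 0.36), with sums of 3706 in HF + SFC, 4049 in HF and 2973 in Control. Such sums add signals of different genes, so they follow the brightest probe sets and say little about the other markers. In HF + SFC the brightest were Gsn (30338) and Dcn (19711) among fibroblast markers and Fabp4 (25306) among adipocyte markers. Among tendon markers it was Fmod, with 9839 in HF + SFC and 7527 in HF.

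The muscle fibre markers had the opposite direction, with all 10 lower in HF than in Control (median -0.14) and all 10 higher in HF + SFC over HF (median 0.26). Myh1 was nearly even in HF over Control (-0.0087), and its next probe set was higher in HF (0.17). The next probe sets of Ckm, Myh4 and Tnni2 were lower in HF. The 6 endothelial markers were split, 3 higher and 3 lower in HF than in Control (median -0.06), and the 6 markers of smooth muscle and pericytes were all higher (median 0.11). In HF + SFC over HF the medians were 0.02 for fibroblast, -0.01 for tendon, -0.61 for adipocyte and -0.07 for macrophage markers. The 3 Schwann cell markers measured were higher in HF than in Control (median 0.33), 3 of 4 satellite cell markers were too (median 0.17), and of the 2 erythroid markers 1 lay below the median signal. The part of these cells in the collagen signals was not tested.

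**Figure D2:**
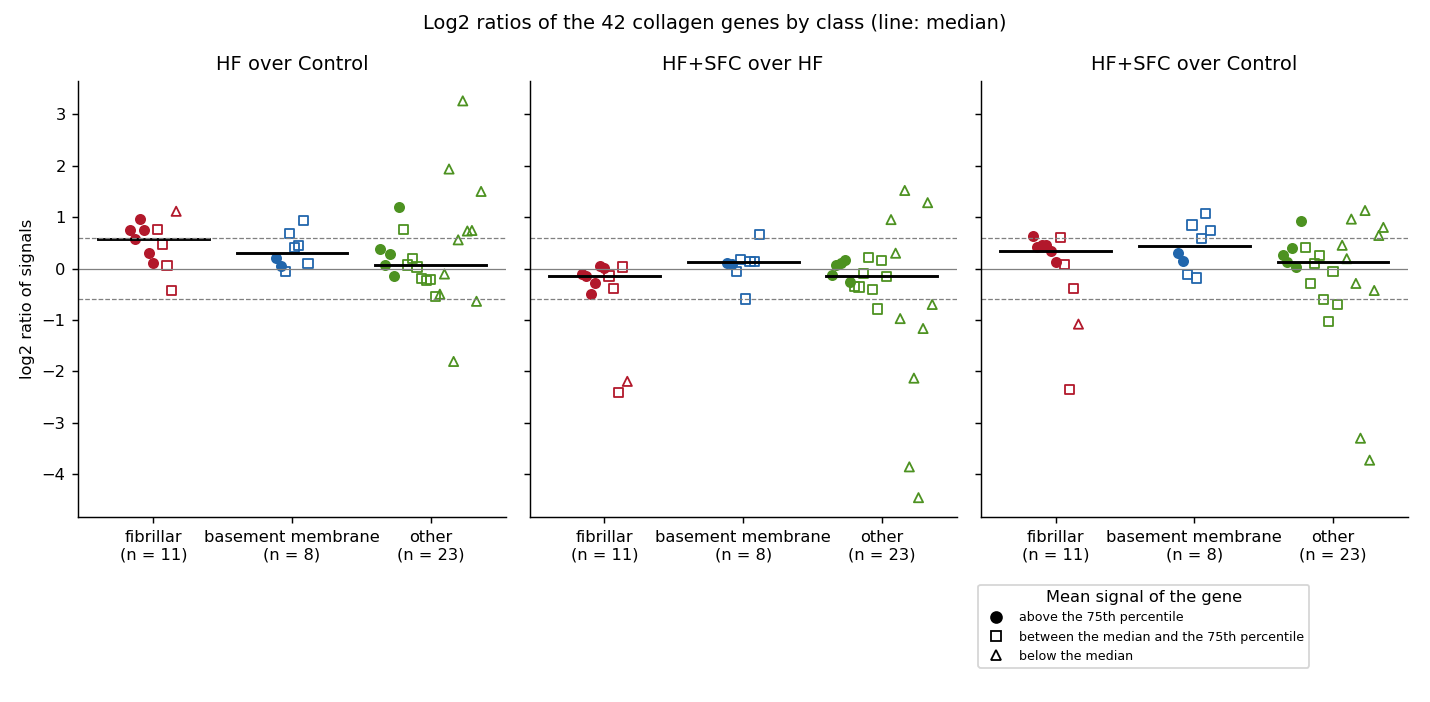
Log2 ratios of the 42 collagen genes in the 3 comparisons, by class, with a line at each class median and dashed lines at 1.5-fold; the symbol shows the tier of the gene's mean signal. In HF over Control the medians were 0.57 for fibrillar, 0.30 for basement membrane and 0.08 for other collagens, and the points far from 0 are mostly open triangles, the genes of low signal.

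The fibrillar collagens had the highest class median in HF over Control, 0.57, with 10 of 11 genes higher. The median was 0.30 for the basement membrane collagens, with 7 of 8 higher, and 0.08 for the other types, with 14 of 23 higher. In HF + SFC over HF the medians were -0.15 for the fibrillar collagens (3 higher, 8 lower), 0.12 for those of basement membranes (6 higher, 2 lower) and -0.15 for the other types (9 higher, 14 lower). In HF + SFC over Control the basement membrane collagens had the highest median, 0.44 (6 higher, 2 lower), against 0.35 for the fibrillar collagens (8 higher, 3 lower) and 0.14 for the other types (14 higher, 9 lower). In the bright tier alone, the HF over Control median was 0.66 over the 6 fibrillar genes, 0.12 over the 2 of basement membranes and 0.29 over the 5 of other types. The classes hold few genes, and differences between them were not tested.

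Col1a1 and Col1a2 encode the chains of type I collagen, the main collagen of tendon and of the connective tissue sheaths of muscle. The Col1a1 signal was 1335 in HF + SFC, 1883 in HF and 968 in Control. It was thus highest in HF, 1.95-fold over Control, with HF + SFC in between at 0.709 of HF and 1.38-fold over Control. Its log2 ratio of -0.50 in HF + SFC over HF was the lowest of the bright collagens. A further Col1a1 probe set gave 647 in HF + SFC, 898 in HF and 559 in Control, the same order of the arrays.

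For Col1a2 the signal was 8839.8 in HF + SFC, 9557 in HF and 5695 in Control. Both high-fat arrays stood above Control, by 1.55-fold for HF + SFC and 1.68-fold for HF, and they differed from each other by a log2 ratio of -0.11. The next probe set of Col1a2 had the same order, with 2976 in HF + SFC, 3652 in HF and 1614 in Control. The partner chains of type I collagen were thus both higher in HF than in Control, while their log2 ratios of HF + SFC over HF were -0.50 for Col1a1 and -0.11 for Col1a2.

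Col3a1 encodes type III collagen, which forms thin reticular fibres together with type I collagen in soft tissues, including the sheaths around muscle bundles. Its signal was 6359 in HF + SFC, 7051 in HF and 4759 in Control. HF was 1.48-fold over Control, just under 1.5-fold, and HF + SFC was at 0.902 of HF. The dimmer Col3a1 probe set placed the arrays in the same order, at 528 in HF + SFC, 579.6 in HF and 355 in Control.

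The sequences before the starts of Col1a2 and Col3a1 are shown because these were the bright fibrillar genes with a sequence in the RefSeq promoter table (assembly GRCm38.p6) and with the 3 arrays in 1 order on both bright probe sets. Each line gives the 250 bases upstream of the start, on the plus strand, for Col1a2 chr6:4505368-4505617 and for Col3a1 chr1:45311288-45311537. Capitals mark matches to CCAAT (the box bound by the factor NF-Y), TATAAA (known as the TATA box) or GGGCGG (a GC box, bound by Sp1), searched on both strands, and no matches overlapped.
Col1a2: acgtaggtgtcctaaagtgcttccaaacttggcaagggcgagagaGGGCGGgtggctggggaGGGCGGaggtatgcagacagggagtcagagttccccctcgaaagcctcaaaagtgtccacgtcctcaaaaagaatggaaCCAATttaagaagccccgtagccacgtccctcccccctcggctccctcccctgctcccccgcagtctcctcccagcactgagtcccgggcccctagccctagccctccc
Col3a1: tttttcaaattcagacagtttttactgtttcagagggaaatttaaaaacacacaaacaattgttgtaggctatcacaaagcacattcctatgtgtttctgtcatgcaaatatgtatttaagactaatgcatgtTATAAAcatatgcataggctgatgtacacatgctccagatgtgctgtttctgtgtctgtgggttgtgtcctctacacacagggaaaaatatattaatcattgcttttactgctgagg
In Col1a2 the GC boxes begin at positions -205 and -188 and the CCAAT box at -109, counted back from the start, where -1 is the base before it. In Col3a1 the only match is TATAAA at -117. GC bases made up 62% of the Col1a2 stretch and 35.2% of that of Col3a1, while the median over all genes' windows was 52.4%. The 2 genes were picked for signals in 1 order of the arrays, so that shared order is no result. The sequences before their starts were quite different, and their part in the signals was not tested. A match is a run of letters and not a shown binding site.

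The table held windows for 33 of the 42 collagen genes. CCAAT occurred in 13 of the 33 genes, against 33.8% of all windows, TATAAA in 5, against 12.4%, and GGGCGG in 20, against 32.7%. Among the 8 fibrillar genes with a window, 6 held GGGCGG, 3 CCAAT and 2 TATAAA. Among 7 basement membrane genes, 4 held GGGCGG, 4 CCAAT and none TATAAA. Col1a1, Col5a2 and Col4a3 were among the 9 genes without a window.

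Type V collagen, which lies inside type I fibrils and starts their assembly, has chains encoded by Col5a1, Col5a2 and Col5a3. Col5a2 resembled Col1a1 and Col1a2, with 818 in HF + SFC, 998 in HF and 594 in Control, or 1.68-fold in HF over Control and 0.819 in HF + SFC over HF. Its next probe set had a smaller log2 ratio of HF over Control (0.20, against 0.75). Col5a1 had 758 in HF + SFC, 734 in HF and 595 in Control, so the high-fat arrays were nearly alike and both above Control. Another Col5a1 probe set, of middle signal, was 311 in HF + SFC, 440.5 in HF and 389 in Control, which puts HF + SFC lowest. For Col5a3 the 3 arrays were close together, at 432 in HF + SFC, 428 in HF and 398 in Control.

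**Figure D3:**
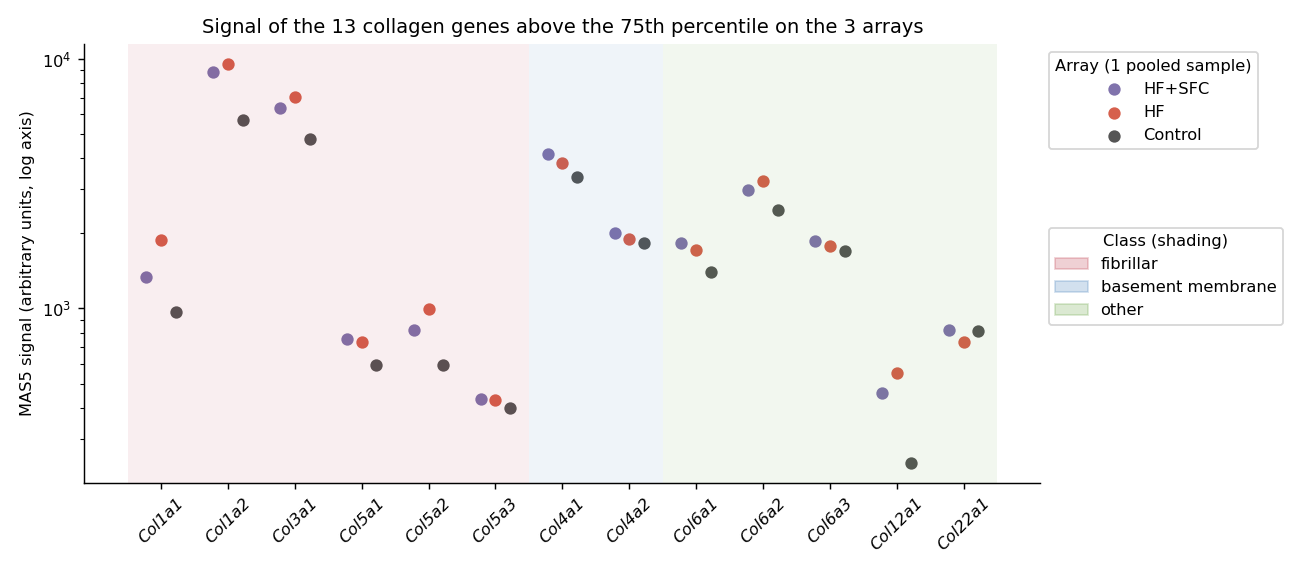
Signal (vertical log axis, arbitrary units) of the 13 collagen genes above the 75th percentile on the HF + SFC, HF and Control arrays, 1 point per array, shaded by class. Col1a1, Col1a2, Col3a1, Col5a2 and Col12a1 show HF highest and Control lowest, while the points of Col4a2, Col5a3, Col6a3 and Col22a1 lie close together.

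The remaining fibrillar genes had dimmer probe sets. Col11a1, a chain of type XI collagen, which starts fibrils in cartilage, had 159 in HF + SFC, 176 in HF and 104 in Control. The high-fat arrays were above Control there, by 1.69-fold for HF, yet its other probe set gave a log2 ratio of HF over Control of -0.068. Col27a1, a cartilage fibril collagen, had 32.3 in HF + SFC, 172 in HF and 165 in Control. Its log2 ratio of -2.42 in HF + SFC over HF was the lowest of the collagens whose mean lay above the median signal. However, its HF + SFC signal was below the median of all probe sets (60.9). Col27a1 was thus in the middle tier through the HF and Control arrays, where it was high. The low ratio was not shared by the other Col27a1 probe set, with 79.1 in HF + SFC, 94.6 in HF and 40.9 in Control. Col11a2 and Col24a1 stayed within 1.5-fold in all 3 comparisons. Col2a1, the main cartilage collagen, lay below the median signal.

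Type IV collagen had a different order of the arrays from Col1a1, Col1a2 and Col3a1, with HF + SFC highest. This order was not particular to type IV. The bright collagens Col5a1, Col5a3, Col6a1 and Col6a3 had it too on their brightest probe sets. Their log2 ratios of HF + SFC over HF were 0.046, 0.013, 0.10 and 0.060, in that order. All 6 type IV genes had a higher signal in HF than in Control (median 0.32 on the log2 scale, with Col4a2 at -0.028 after median centring) and a still higher one in HF + SFC (median 0.13 over HF). On the brightest probe sets the ratios of HF + SFC over HF were small for 5 of the 6, between 0.084 and 0.17. Other probe sets gave 0.14 for Col4a1, 0.50 for Col4a5, 0.53 for Col4a6, and 1.02 and -0.021 for Col4a4. Those of Col4a4 and Col4a6 lay below the median signal. Col4a1 and Col4a2, the chains found in nearly all basement membranes, are neighbours that are read in opposite directions, and their promoter windows overlap by 78 bases. Col4a1 had 4152 in HF + SFC, 3840.2 in HF and 3356 in Control. Col4a2 had 2013 in HF + SFC, 1899 in HF and 1829 in Control. Both were ordered alike, but the log2 ratios were at most 0.31 for Col4a1 and 0.14 for Col4a2. The next probe set of Col4a1 had the same order, with 1162 in HF + SFC, 1052 in HF and 778 in Control.

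The type IV chains of more restricted basement membranes, best known from the kidney, had middle signals and wider ratios. Col4a5 had 294 in HF + SFC, 262 in HF and 164 in Control, or 1.6-fold in HF over Control. Its other probe set was also highest in HF + SFC, at 108, with 76.1 in HF and 66.4 in Control. Col4a6, which pairs with Col4a5 in some basement membranes, had 95.6 in HF + SFC, 87.1 in HF and 45.5 in Control, so that Control stood apart. Its Control signal was below the median of all probe sets (60.9), so that it was in the middle tier through the high-fat arrays, where it was high. The other Col4a6 probe set was below the median signal and went the other way in HF over Control. Col4a3 had 93.7 in HF + SFC, 59.6 in HF and 55.9 in Control, where HF + SFC stood apart. It was 1.57-fold over HF, but its signal exceeded the median of all probe sets (60.9) on the HF + SFC array only, so that it was in the middle tier through the array where it was high. The second Col4a3 probe set, below the median, gave 58.5 in HF + SFC, 36.3 in HF and 31.1 in Control.

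Col15a1 and Col18a1 encode the multiplexins, which link basement membranes to the matrix around them; the end of the Col18a1 protein is released as endostatin, an inhibitor of vessel growth. Neither had the order seen in type IV collagen. Col18a1 was highest in HF, with 164 in HF + SFC, 246 in HF and 186 in Control, and was 0.664 of HF in HF + SFC. Its other probe set was also highest in HF but lowest in Control, at 151 in HF + SFC, 168 in HF and 94.97 in Control. Col15a1 stayed within 1.5-fold in all comparisons.

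Type VI collagen forms beaded filaments that tie the muscle fibre's basement membrane to the matrix, and mutations of its chains cause muscular dystrophies in people. Its chains Col6a1, Col6a2 and Col6a3 were bright and modestly higher on the high-fat arrays. Col6a1 had 1834 in HF + SFC, 1709 in HF and 1397 in Control. Col6a2 had 2974 in HF + SFC, 3233 in HF and 2484 in Control, and Col6a3 had 1858 in HF + SFC, 1782 in HF and 1692 in Control. Control was lowest for all 3 genes, except for Col6a3 against HF after median centring (-0.0068), with log2 ratios of HF over Control of 0.29, 0.38 and 0.075 for Col6a1, Col6a2 and Col6a3. The 2 high-fat arrays differed by at most 0.12 in size on this scale, and the other Col6a2 probe set, also bright, had HF + SFC slightly above HF (0.048).

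Col12a1 and Col22a1 belong to the fibril-associated collagens, which sit on the surface of fibrils. Col12a1, known from tendon and the sheaths of muscle, had 458 in HF + SFC, 553 in HF and 241 in Control. The HF array was 2.29-fold over Control and HF + SFC was 1.90-fold over Control, but the gene was in the bright tier (above 384) through the high-fat arrays, where it was high. That pattern rests on a single probe set, because the next brightest had 106 in HF + SFC, 83.6 in HF and 92.2 in Control. Col22a1, a collagen of the junction between muscle and tendon, was the bright collagen with a lower signal in HF than in Control, at 822 in HF + SFC, 733 in HF and 809.7 in Control. Its second bright probe set had 524 in HF + SFC, 473 in HF and 366 in Control, with HF above Control.

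Among the fibril-associated collagens of middle signal, Col9a1, a cartilage collagen, had 87.7 in HF + SFC, 151 in HF and 179 in Control. HF + SFC was the lowest array, at 0.580 of HF, yet for the other Col9a1 probe set the lowest was Control (61.2). Col20a1 had 90.2 in HF + SFC, 100.1 in HF and 146 in Control, with both high-fat arrays below Control, while its next probe set put HF + SFC above HF (0.99 on the log2 scale). Col14a1, Col16a1 and Col19a1 stayed within 1.5-fold in all comparisons.

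Of the network-forming and anchoring types, Col8a1, a collagen of vessel walls, had 312 in HF + SFC, 399 in HF and 236 in Control. HF was 1.69-fold over Control, and the next Col8a1 probe set was also higher in HF than in Control (0.53 on the log2 scale). Between HF + SFC and HF those probe sets had opposite signs, -0.36 and 0.075. Col7a1, the collagen of the anchoring fibrils of skin, had 117 in HF + SFC, 155 in HF and 178 in Control, so that HF + SFC was 0.661 of Control. Col8a2 stayed within 1.5-fold in all comparisons.

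The 11 collagens below the median signal were Col2a1, Col6a4, Col6a5, Col9a2, Col9a3, Col10a1, Col13a1, Col17a1, Col23a1, Col25a1 and Col26a1. Several are known from cartilage (Col2a1, Col9a2, Col9a3 and Col10a1), Col17a1 anchors skin cells, and Col13a1 and Col25a1 are transmembrane collagens with roles at the contact of nerve and muscle. Their signals lay between 1.6 and 72.6 in HF + SFC, between 3.27 and 55.5 in HF and between 2.39 and 53.1 in Control. Their log2 ratios ran over a range of -1.81 to 3.26 for HF over Control and of -4.45 to 1.52 for HF + SFC over HF. These 11 genes supplied 6 of the 14 collagens at least 1.5-fold higher in HF than in Control, both that were at least 1.5-fold lower, and 7 of the 10 with a signal at least 1.5-fold below that of HF in HF + SFC. The SD of 1.90 between probe sets of a gene at such signals is as wide as many of these ratios, so no order of the arrays can be read from them.

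The other probe sets of a gene are a check on its brightest, although they share the array and so are no replicates. For 18 collagens at least 2 probe sets lay above the median signal. All of a gene's probe sets above the median had the same sign in 13 of the 18 for HF over Control, in 11 for HF + SFC over HF and in 13 for HF + SFC over Control. The bright genes with a second bright probe set were fewer, and of these 6 the sign was shared by 5 for HF over Control, 5 for HF + SFC over HF and 6 for HF + SFC over Control.

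**Figure D4:**
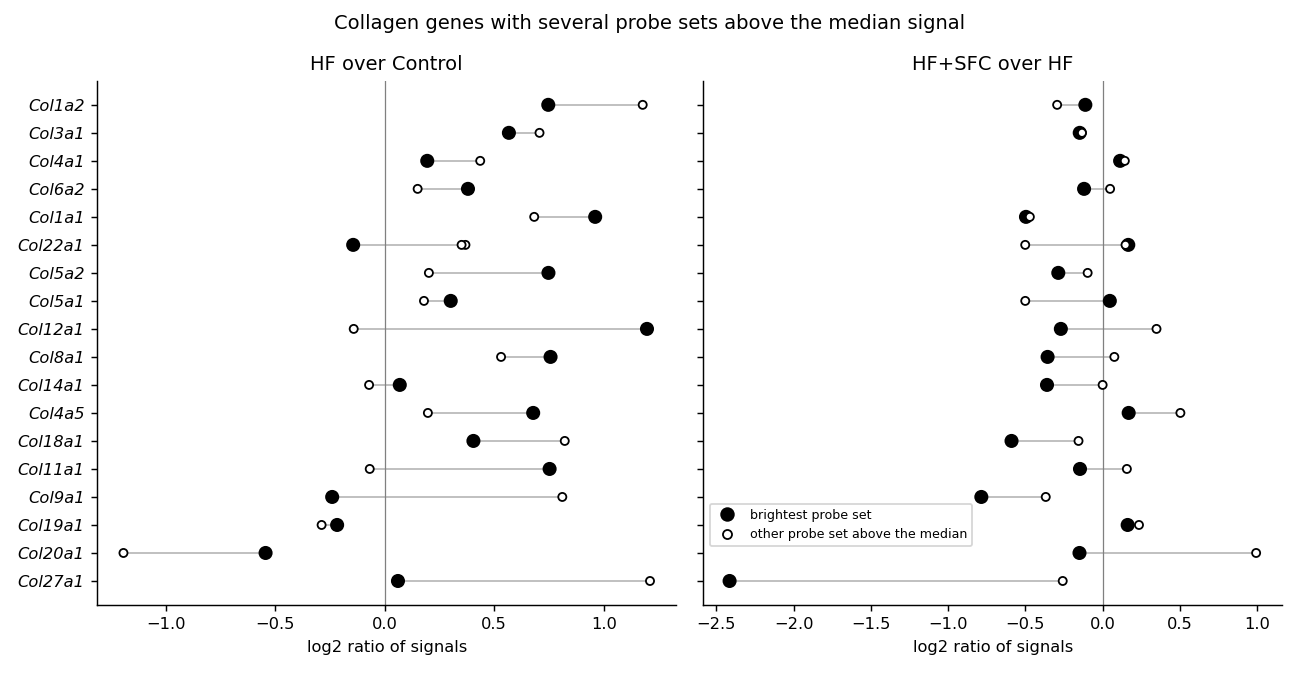
Log2 ratios of HF over Control (left) and HF + SFC over HF (right) for the 18 collagen genes with several probe sets above the median signal, ordered by signal; filled points are the brightest probe set, open points the others, joined by a line. In HF over Control the probe sets of Col1a1, Col1a2 and Col3a1 all lie above 0, whereas the lines of Col9a1, Col11a1, Col12a1, Col14a1 and Col22a1 cross it.

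Collagen chains are modified before they fold, and the hydroxylation list held prolyl and lysyl hydroxylases and their partners. Of its 12 genes, 8 were higher and 4 lower in HF over Control (median 0.14 on the log2 scale), with 3 at least 1.5-fold higher, against 17% of all genes. In HF + SFC over HF, 6 were higher and 6 lower (median 0.03), with 1 at least 1.5-fold lower, against 13.5% of all genes. Above the 75th percentile the medians were 0.03 for both comparisons, over 6 genes. Crtap, a partner of the prolyl 3-hydroxylase, had 613 in HF + SFC, 588 in HF and 366 in Control, with Control lowest. It was in the bright tier (above 384) through the high-fat arrays, where it was high. P4ha1, a catalytic subunit of the prolyl 4-hydroxylase, had 765 in HF + SFC, 649 in HF and 805 in Control, so that HF was the lowest array, but its other probe set had the opposite sign in both comparisons (0.16 and -0.35). Plod3, a lysyl hydroxylase that also adds sugars, had 474 in HF + SFC, 642 in HF and 569 in Control, with HF + SFC lowest.

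The folding list held genes of collagen folding, of glycosylation (the adding of sugars) and of export, and further genes such as Sparc. Of 13 genes measured 9 were higher and 4 lower in HF than in Control (median 0.22), and 3 were higher and 10 lower in HF + SFC over HF (median -0.15). At least 1.5-fold, 2 were higher and 1 lower in HF than in Control, against 17% and 12.2% of all genes. In HF + SFC over HF, 1 was that much higher and 1 that much lower, against 13.7% and 13.5%. Sparc, a collagen-binding protein of the matrix, had 10273 in HF + SFC, 12554 in HF and 7975 in Control, the same order of the arrays as Col1a1, and its next probe set had a similar log2 ratio of HF over Control (0.76, against 0.65). Hsp90b1, a chaperone of the endoplasmic reticulum, was also highest in HF, with 4818 in HF + SFC, 6042 in HF and 4498 in Control. Ppib, a prolyl isomerase that helps collagen fold, was nearly even, with 2076 in HF + SFC, 1899 in HF and 1959 in Control.

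Outside the cell, procollagen is trimmed and crosslinked. Of 11 genes measured 9 were higher and 2 lower in HF than in Control (median 0.23), and 5 were higher and 6 lower in HF + SFC over HF (median -0.02). At least 1.5-fold, 3 were higher and 1 lower in HF than in Control, against 17% and 12.2% of all genes. In HF + SFC over HF, 1 was that much higher and 2 that much lower, against 13.7% and 13.5%. Lox, the lysyl oxidase that starts the crosslinks of collagen and elastin, had 563 in HF + SFC, 664 in HF and 368 in Control, again with HF highest and Control lowest. Lox was in the bright tier (above 384) through the high-fat arrays, where it was high. A further Lox probe set gave log2 ratios of 0.68 for HF over Control and -0.071 for HF + SFC over HF, against 0.85 and -0.24. Pcolce2, an enhancer of procollagen trimming, had 634 in HF + SFC, 616 in HF and 470 in Control. Tgm2, a transglutaminase, had 4131 in HF + SFC, 4584 in HF and 4467 in Control.

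**Figure D5:**
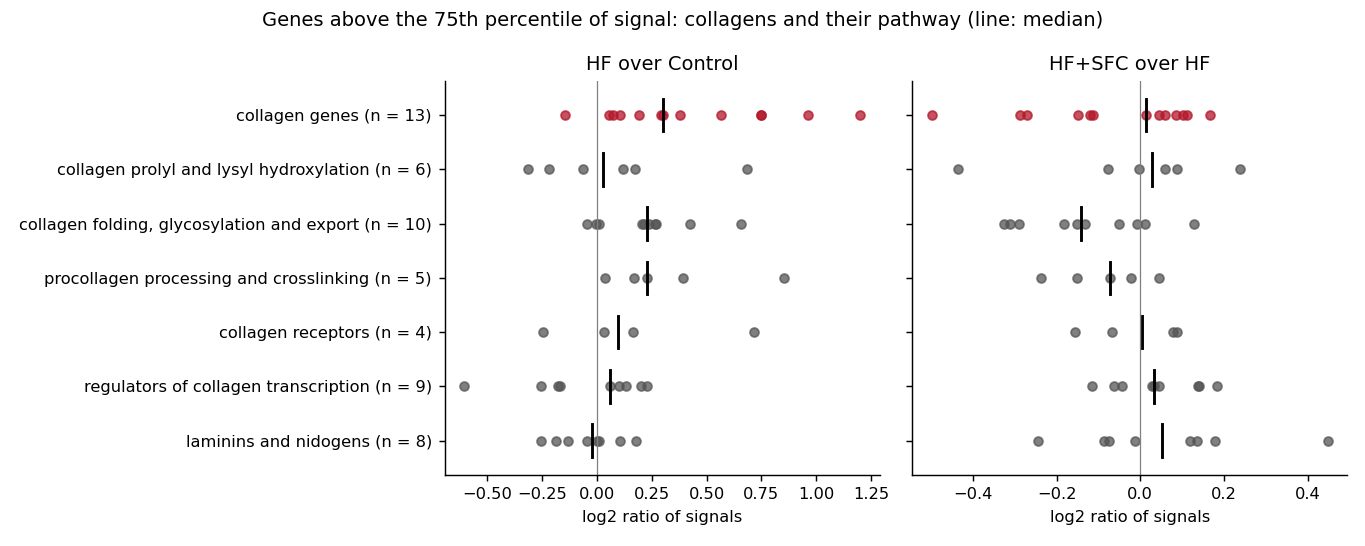
Log2 ratios of signals for HF over Control (left) and HF + SFC over HF (right) of the collagens (red) and of the genes of 6 lists (grey), only for genes above the 75th percentile of signal, 1 point per gene, with a line at each median. In HF over Control the medians were 0.30 for the 13 collagens, 0.23 for the folding and processing lists and -0.02 for laminins and nidogens. In HF + SFC over HF those of the 6 lists lay between -0.14 and 0.05. Some genes, such as Col12a1, Lox, Crtap, Adgrg1 and Ddr2, were in this tier through the arrays where they were high.

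Collagen receptors had 10 of 11 measured genes higher in HF than in Control (median 0.41), where 9222 of all 18193 genes were. In HF + SFC over HF, 6 were higher and 5 lower (median 0.08). At least 1.5-fold, 4 were higher in HF than in Control, against 17% of all genes, and 1 was lower in HF + SFC over HF, against 13.5%. Of those 4, Itga2 and Lair1 lay below the median signal, as did Itga10, another of the 10 receptors higher in HF. Only 4 receptors were bright, with a median of 0.10 in HF over Control. Adgrg1, an adhesion receptor that binds type III collagen, had 458 in HF + SFC, 509 in HF and 310.2 in Control. That difference was not shown by its other probe set (-0.12 in HF over Control). Adgrg1 was in the bright tier (above 384) through the high-fat arrays, where it was high. Ddr2, a kinase receptor for fibrillar collagens, had 382 in HF + SFC, 360 in HF and 426 in Control, with Control highest. It was in the bright tier through the Control array, where it was high.

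The genes that regulate collagen transcription, mostly of the TGF-beta pathway, were split by sign. Of 14, 7 were higher in HF than in Control (median 0.02) and 8 were higher in HF + SFC over HF (median 0.03). At least 1.5-fold, none was higher and 3 (Smad3, Larp6 and Tgif1) were lower in HF than in Control, against 17% and 12.2% of all genes. In HF + SFC over HF none was that much higher or lower, against 13.7% and 13.5%. Smad3, which carries the TGF-beta signal to the nucleus, had 3245 in HF + SFC, 3170 in HF and 4816 in Control. It was 0.658 of Control in HF, and its other probe set gave a similar log2 ratio (-0.50, against -0.60). Tgfbr2, a receptor of TGF-beta, had 1391 in HF + SFC, 1506 in HF and 1286 in Control, and Sp1 had 1351 in HF + SFC, 1190 in HF and 1346 in Control.

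Laminins, nidogens and perlecan share the basement membrane with type IV collagen, but their medians were near 0, at 0.01 for HF over Control (8 higher, 6 lower) and 0.02 for HF + SFC over HF (7 higher, 7 lower). Hspg2, which encodes perlecan, had 973 in HF + SFC, 714 in HF and 813 in Control, while its next probe set gave a log2 ratio of -0.06 in HF + SFC over HF. Nid1, a nidogen that bridges laminin and type IV collagen, was highest in HF, with 2521 in HF + SFC, 2988 in HF and 2642 in Control. Lamb1, a laminin chain, had 878 in HF + SFC, 808 in HF and 963 in Control, and its other probe set had the opposite sign in HF over Control (0.29).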

How the data were processed

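Total RNA of gastrocnemius muscle was labelled as biotinylated cRNA and hybridised to Affymetrix GeneChip Mouse Genome 430 2.0 arrays, 1 per group, each a mix of a group's samples, described as cDNA in the study's design and as cRNA in the labelling protocol. The authors deposited linear MAS5 intensities (version not given in the sources used here) for 45101 probe sets, scaled by them to 1 trimmed mean. After 64 controls were set aside, 34945 probe sets carried 1 symbol, 932 several and 9160 none. For 34754 of these the gene ID was found in a RefSeq table (GRCm38.p6), and the table's symbol was used, whether or not it differed. Of the 34945, the rest kept their own symbol. Log2 ratios of the intensities had no offset, and percentiles were taken over mean log2 signals. Col6a6 and Col28a1, the other 2 of the table's 44 collagen genes, were not analysed here, nor were liver arrays. With 1 array per group no test was possible, and the number of arrays limits the precision.

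Named collagens were those above the 75th percentile and those of middle signal at least 1.5-fold apart in any comparison. In each pathway list, the members above the 75th percentile with the extreme ratios were named. The members, lists and rules were chosen with earlier results of these data known. Values were also computed from the mean of a gene's probe sets or its next brightest one, after median centring or quantile normalization, with an offset of 50, above the median signal only, without probe sets of unspecific design (suffix s, x or a), and at 2-fold. Scripts were tested on simulated data. Python 3.11.15, numpy 2.4.6, pandas 2.3.3, scipy 1.17.1 and matplotlib 3.10.9 were used.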

Additional observations from a re-analysis of the deposited data

How the results depend on the processing

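Each group had 1 array, so leaving out an array ends a comparison, and no paired analysis was possible because each group had 1 array. A median was taken as close to its value above when within 0.1 on the log2 scale, and a count when within 1.5 times. For a named gene's log2 ratio the limit was set by its tier and comparison. It was the SD of the difference between probe sets, divided by the square root of 2. By these limits, 83 median and count results over the alternatives were close, 29 moved and 2 reversed, and among the values of named genes 382 were close, 42 moved and 35 reversed. With quantile normalization all were close by these limits, though some counts moved, such as the 10 higher collagens in HF + SFC over Control, which became 8. The cause was not tested unless the alternative itself removes dim genes or shrinks their ratios.

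In HF over Control, the median of all collagens was 0.17 with an offset of 50 and 0.19 above the median signal, and that of other collagens was -0.0068 with median centring. The 14 collagens at least 1.5-fold higher became 9 with the mean of all probe sets, 7 with the offset, 8 above the median signal and 5 at a 2-fold threshold, while the 2 lower became 5, 0, 0 and 1. Median centring, which shifted the median of all genes by -0.08, reversed Col4a2 (-0.028), Col6a3 (-0.0068) and Col27a1 (-0.021). The mean of all probe sets reversed Col4a6 (-1.19), Col8a1 (-0.37), Col9a1 (0.29) and Col22a1 (0.19). The next brightest probe set reversed Col9a1 (0.81), Col11a1 (-0.068), Col12a1 (-0.14) and Col22a1 (0.37), the last also without probe sets of unspecific design (0.37).

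In HF + SFC over HF, the mean of all probe sets gave medians of -0.016 for all, -0.38 for fibrillar, 0.23 for basement membrane and 0.060 for other collagens. The 4 higher collagens became 0 with the offset, 1 above the median signal and 2 at 2-fold, and the 10 lower became 5, 3 and 6. The mean of all probe sets reversed Col1a2 (0.19), Col5a1 (-0.49), Col5a3 (-1.19), Col8a1 (0.75), Col11a1 (0.0045), Col20a1 (0.47) and Col22a1 (-0.063). The next brightest probe set reversed Col5a1 (-0.50), Col6a2 (0.048), Col8a1 (0.075), Col11a1 (0.16), Col12a1 (0.35) and Col20a1 (0.99).

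In HF + SFC over Control, the median of all collagens was 0.12 with the offset and 0.33 without probe sets of unspecific design. That of fibrillar collagens was 0.078 with the mean of all probe sets, and that of basement membrane collagens was 0.34 with the mean and 0.33 with the offset. The 10 higher collagens became 4 with the offset, 6 above the median signal, 2 at 2-fold and 7 with median centring, where Col1a2 (0.54) and Col11a1 (0.51) were no longer 1.5-fold higher, and the 7 lower became 3 with the offset and 4 above the median signal. The mean of all probe sets reversed Col4a6 (-0.85), Col5a1 (-0.15), Col5a3 (-0.93), Col12a1 (-0.25) and Col18a1 (0.24). The next brightest reversed Col5a1 (-0.32), Col9a1 (0.44), Col18a1 (0.67) and Col27a1 (0.95), and median centring Col22a1 (-0.073).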
